A study of Mus musculus with 6 samples.

Results

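Ifng, Ccl3, Ccl4, Ccl5 and Xcl1 encode interferon gamma and 4 chemokines that activated CD8+ T cells secrete, and their transcripts were followed across 6 RNA sequencing libraries. They were chosen by symbol as a group of secreted effector molecules, with earlier results of these data known, and no measured value entered the rule. Each was identified in the deposited table through its Ensembl gene ID. All 5 had a row, out of 13675 genes listed, and all 5 were abundant enough to be tested.

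The cells were OT-I CD8+ T cells, which carry 1 transgenic T cell receptor against a peptide of ovalbumin, so the libraries come from a single receptor specificity. In the KO-labelled libraries (3 samples) the donor cells were CK2αfl/fldLck-Cre: the gene of the kinase subunit CK2α is flanked by loxP sites and Cre recombinase is driven by the distal Lck promoter, which acts in T cells. In the WT-labelled libraries (3 samples) the donor cells were CK2αfl/fl without Cre. In both groups CD45.2 donor cells were placed in CD45.1 B6 hosts with their own lymphocytes, each genotype in separate hosts, and the hosts were infected with Listeria monocytogenes expressing ovalbumin. The donor CD45.2 CD8+ cells were recovered from spleens by sorting on day 7. Animal age is not given, and the labels do not say whether samples of a group came from separate hosts, so p-values here reflect only how far these samples scatter, and that scatter may be technical.

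Interferon gamma is the cytokine by which effector CD8+ T cells and natural killer (NK) cells activate macrophages to kill intracellular bacteria such as Listeria, and it raises antigen presentation in the cells that receive it. CCL3, CCL4 and CCL5 are CC chemokines that draw monocytes and effector T cells to a site of infection; memory and effector CD8+ T cells hold a large store of CCL5 mRNA. XCL1 is the ligand of XCR1, the receptor of the dendritic cells that cross-present antigen to CD8+ T cells. Activated T cells secrete these proteins together with interferon gamma.

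The chemokine genes are related in sequence, so the coding sequence around the first conserved cysteine is shown to let the members be told apart. Each stretch is 66 bases of the GENCODE M21 coding sequence, 5′ to 3′, and capitals mark the cysteine codon or codons that give the family its name.
Ccl3: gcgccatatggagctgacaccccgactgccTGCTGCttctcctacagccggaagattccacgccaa
Ccl4: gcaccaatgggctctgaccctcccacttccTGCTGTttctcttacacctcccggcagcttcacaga
Ccl5: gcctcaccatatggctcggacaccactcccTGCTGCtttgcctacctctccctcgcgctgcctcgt
Xcl1: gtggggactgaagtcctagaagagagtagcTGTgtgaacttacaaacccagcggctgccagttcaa
Ccl3, Ccl4 and Ccl5 carry a pair of adjacent cysteine codons, the CC motif, starting at codon 34 of the first and second of these genes and at codon 33 of the third, counted from the start codon. Xcl1 has a single cysteine there, at codon 32. Aligned on that cysteine without gaps, Ccl3 and Ccl4 matched at 40 of 66 bases (60.6%), Ccl4 and Ccl5 at 32, and Ccl5 and Xcl1 at 19. No 2 of the 5 transcripts, Ifng included, shared an exact run of more than 13 bases.

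On GRCm38 (mm10), Ccl5 (ENSMUSG00000035042) lies at chr11:83525778-83530518 on the minus strand. Ccl3 (ENSMUSG00000000982) lies at chr11:83647844-83649355 on the minus strand, and Ccl4 (ENSMUSG00000018930) beside it at chr11:83662584-83664683 on the plus strand. Ifng (ENSMUSG00000055170) is at chr10:118441046-118445892 on the plus strand and Xcl1 (ENSMUSG00000026573) at chr1:164931644-164935527 on the minus strand. Each value below is a count over the whole gene. An unlisted transcript of the same strand, Gm49751, shares 336 of the 1295 exonic bases of Ifng, and Gm20743, on the opposite strand, shares 98 of the 523 exonic bases of Xcl1. The use of strand in counting is not given, so reads in these stretches are uncertain.

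The libraries held 14746864 to 22931296 reads over the listed genes. Csnk2a1, which encodes CK2α, went against its label: it measured 2828, 2875 and 2786 normalized counts in the KO-labelled libraries, against 1665, 1847 and 1645 in the WT-labelled libraries (log2 fold change 0.72, limma adjusted p = 0.000865). A count over the whole gene takes in any exons that remain and does not check the deletion, so every direction here is between labels. All 10 CD8+ T cell markers were measured and none was called by limma or edgeR (2 at an unadjusted p below 0.05, 1 called by DESeq2), with Cd8a at 25233 to 31515 normalized counts over the 6 libraries. The 13 B cell markers summed to 6787, 11089 and 10401 normalized counts in KO-labelled libraries 1, 2 and 3, against 4326 to 4889 in the WT-labelled libraries, and 2 of 13 (Cd22 and Ighm) were called higher. All 13 had a log2 fold change above 0 (median 1.47), 11 had an unadjusted p below 0.05, and edgeR called 3 and DESeq2 5. Over all genes tested, limma called 2.04% higher and 3.15% lower. Of 4 plasma cell markers 2 (Igkc and Jchain) were called higher, 1 of 12 monocyte and macrophage markers (Cd68) was higher, 1 of 6 dendritic cell markers (Itgax, in a list whose median was 0.57, with 4 of 6 above 0) and 1 of 4 CD4+ T cell markers (Cd40lg) lower, and 0 of 5 neutrophil and 0 of 7 erythroid or platelet markers were called by limma or edgeR. Of those 2 lists, 4 and 1 had an unadjusted p below 0.05, and DESeq2 called 1 and 0. Cd68 had a limma adjusted p of 0.0486 and was called in 1 of 6 runs with a library left out (adjusted p up to 0.158). Of the 12 monocyte and macrophage markers edgeR called 0 and DESeq2 1.

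None of the 5 genes passed the test between KO-labelled and WT-labelled libraries when all 6 libraries were used. Calls were made with limma on log2(normalized count + 1) where p, adjusted by Benjamini-Hochberg over the 13654 genes tested, was under 0.05, and 5.19% of those genes were called. Ccl3, Ccl4 and Ccl5 had close log2 fold changes, KO minus WT, of -0.55 to -0.45. Ifng was nearly level, and Xcl1, at 29.7 normalized counts or fewer, had the opposite sign. By edgeR none of the 5 was called and by DESeq2 1 was. Of the 5, 2 had an unadjusted limma p below 0.05, as did 21.4% of all genes tested, and 4 had a negative log2 fold change, as did 48.7%. The median log2 fold change was -0.45 over the 5 genes and 0.0061 over all genes tested. In bulk RNA, fewer cells that express a gene and less RNA per cell cannot be told apart.

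**Figure D1:**
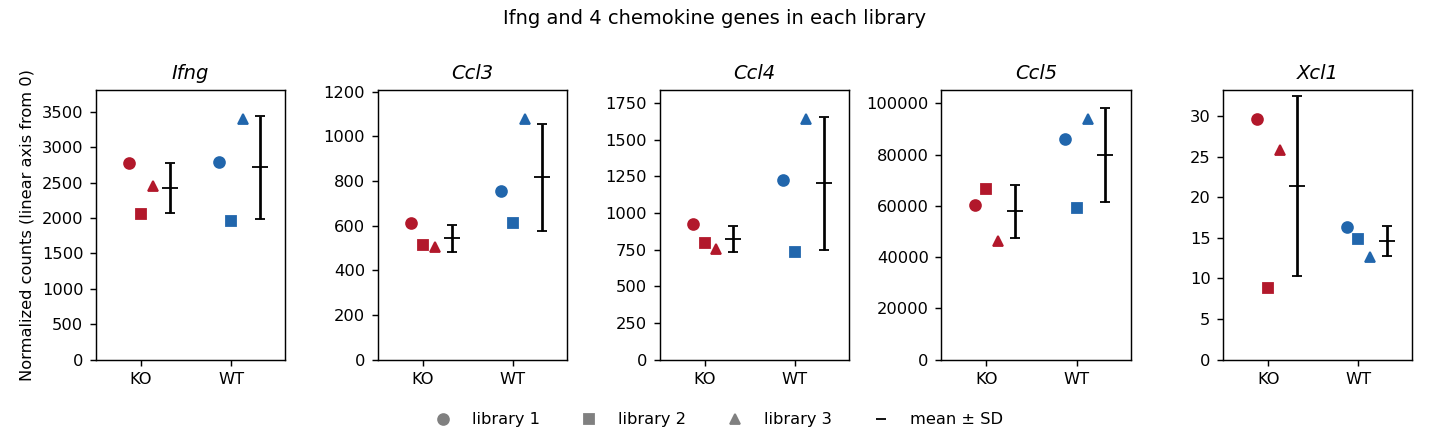
Normalized counts of Ifng, Ccl3, Ccl4, Ccl5 and Xcl1 (one panel each, linear axis from 0) in KO-labelled (red, left) and WT-labelled (blue, right) libraries; circles, squares and triangles are libraries 1, 2 and 3, and bars are the mean ± SD (n = 3). The 3 KO-labelled points of Ccl3 lie between 503 and 610, just under the lowest WT-labelled point at 612, while the other 4 genes overlap.

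Ccl3 encodes CCL3 (MIP-1α), a chemokine that attracts monocytes and T cells. It measured 610, 514 and 503 normalized counts in KO-labelled libraries 1, 2 and 3, against 756, 612 and 1079 in WT-labelled libraries 1, 2 and 3. Every KO-labelled library lay below every WT-labelled one, but KO-labelled library 1 and WT-labelled library 2 were almost at the same level. Ccl3 was the 1 gene of the 5 whose groups did not overlap, which was so for 25.7% of all genes tested. Its mean was 542 ± 58.7 in KO-labelled libraries and 816 ± 239 in WT-labelled libraries (SD, n = 3 each), a log2 fold change of -0.55 (SE 0.18, 95% interval -0.94 to -0.16). The limma p was 0.0101 before and 0.104 after adjustment, and the exact two-sided permutation p was 0.1, the smallest that 3 against 3 can give. With DESeq2 on the reads recovered from the values Ccl3 was called (log2 fold change -0.59, adjusted p = 0.0112, where 7.37% of genes were called), and with edgeR it was not (adjusted p = 0.103, where 4.72% of genes were called).

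Ccl4 encodes CCL4 (MIP-1β), a chemokine that T cells commonly secrete with CCL3. It measured 925, 793 and 755 normalized counts in the KO-labelled libraries, against 1226, 734 and 1642 in the WT-labelled libraries. WT-labelled libraries 1 and 3 were above all KO-labelled libraries, whereas WT-labelled library 2 was the lowest of the 6. The mean was 824 ± 89.2 in KO-labelled libraries and 1201 ± 454 in WT-labelled libraries (SD, n = 3 each). This is a log2 fold change of -0.47 (SE 0.23, 95% interval -0.98 to 0.04) that did not pass (limma, p = 0.0668, adjusted p = 0.272; exact permutation p = 0.4).

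Ccl5 encodes CCL5 (RANTES), a chemokine that attracts T cells and monocytes, and it was among the most abundant transcripts of these cells. It measured 60435, 66560 and 46409 normalized counts in the KO-labelled libraries, against 86151, 59293 and 94005 in the WT-labelled libraries. As for Ccl4, WT-labelled libraries 1 and 3 stood above the rest and WT-labelled library 2 fell among the KO-labelled ones, below KO-labelled libraries 1 and 2. The mean was 57801 ± 10330 in KO-labelled libraries and 79816 ± 18202 in WT-labelled libraries (SD, n = 3 each), and the log2 fold change -0.45 (SE 0.18, 95% interval -0.86 to -0.05). It had a limma p of 0.0320 and an adjusted p of 0.184, and the exact permutation p was 0.3. Ccl5 alone took 0.256% to 0.358% of the reads of a KO-labelled library and 0.307% to 0.489% of those of a WT-labelled library.

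Ifng measured 2772, 2059 and 2453 normalized counts in the KO-labelled libraries, against 2795, 1953 and 3403 in the WT-labelled libraries. The highest and the lowest of the 6 values were both WT-labelled, libraries 3 and 2, with the KO-labelled libraries between them. The mean was 2428 ± 357 in KO-labelled libraries and 2717 ± 728 in WT-labelled libraries (SD, n = 3 each). The log2 fold change was -0.14 (SE 0.18, limma adjusted p = 0.717; exact permutation p = 0.7), with a 95% interval of -0.53 to 0.26 that holds both 0 and the values measured for Ccl4 and Ccl5. Without WT-labelled library 3 its sign turned (0.045).

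Xcl1 was detected near the limit of the table. It measured 29.7, 8.82 and 25.8 normalized counts in the KO-labelled libraries, against 16.4, 14.9 and 12.6 in the WT-labelled libraries. KO-labelled libraries 1 and 3 were the highest of the 6 and KO-labelled library 2 the lowest. These values rest on 32, 7 and 26 reads in KO-labelled libraries 1, 2 and 3, against 16, 15 and 15 in WT-labelled libraries 1, 2 and 3. The exact Poisson 95% interval, which covers counting error only, was 21.9 to 45.2 reads for KO-labelled library 1 and 2.81 to 14.4 for KO-labelled library 2, so those libraries of the same label differed by more than counting error. The mean was 21.4 ± 11.1 in KO-labelled libraries and 14.6 ± 1.91 in WT-labelled libraries (SD, n = 3 each; log2 fold change 0.37, SE 0.45, limma adjusted p = 0.692; exact permutation p = 0.5). The 95% interval of -0.63 to 1.37 takes in both 0 and the values measured for the other chemokines.

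Divided by exonic length, so that genes can be set side by side, the order of levels was the same in both labels: Ccl5, Ifng, Ccl4, Ccl3, Xcl1. Ccl5 reached 60210 ± 10761 normalized counts per kb in KO-labelled libraries and 83142 ± 18961 in WT-labelled libraries (SD, n = 3 each), and ranked 3 among all genes. Ifng reached 1875 ± 275 per kb in KO-labelled libraries and 2098 ± 563 in WT-labelled libraries. Its distance from Ccl4 was within the spread for the WT label only: Ccl4 stood at 1249 ± 135 per kb in KO-labelled libraries and 1819 ± 689 in WT-labelled libraries. Ccl3 followed at 708 ± 76.6 per kb in KO-labelled libraries and 1065 ± 312 in WT-labelled libraries, where its range overlapped that of Ccl4. Xcl1 came last at 41.0 ± 21.2 per kb in KO-labelled libraries and 27.9 ± 3.65 in WT-labelled libraries, rank 9387. Lengths are the union of all annotated exons, which overstates the mature mRNA where transcripts with kept introns are annotated.

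Ifng, Ccl3, Ccl4 and Ccl5, the 4 abundant genes, varied more among the WT-labelled than among the KO-labelled libraries. On the log2 scale the SD over the 3 KO-labelled libraries was 0.22 for Ifng, 0.15 for Ccl3, 0.15 for Ccl4 and 0.27 for Ccl5, and over the 3 WT-labelled libraries it was 0.41, 0.41, 0.59 and 0.35 in the same order of genes. The median gene had an SD of 0.13 in KO-labelled and 0.14 in WT-labelled libraries. Among the 6212 genes that averaged 500 normalized counts or more, 1.87% had as large a WT-labelled SD as Ifng, 1.82% as Ccl3, 0.869% as Ccl4 and 2.19% as Ccl5. The 4 genes shared 1 order over the WT-labelled libraries, library 3 highest and library 2 lowest. Over all genes tested, library 2 was the lowest of the WT label in 38.8%, library 1 in 34.4% and library 3 in 26.8%. These shares cover the lowest library only, and the share of genes with the whole order was not counted. Relative to WT-labelled library 2, the mean of WT-labelled libraries 1 and 3 was 1.59-fold for Ifng, 1.499-fold for Ccl3, 1.95-fold for Ccl4 and 1.52-fold for Ccl5. Xcl1 did not share it (0.97-fold).

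**Figure D2:**
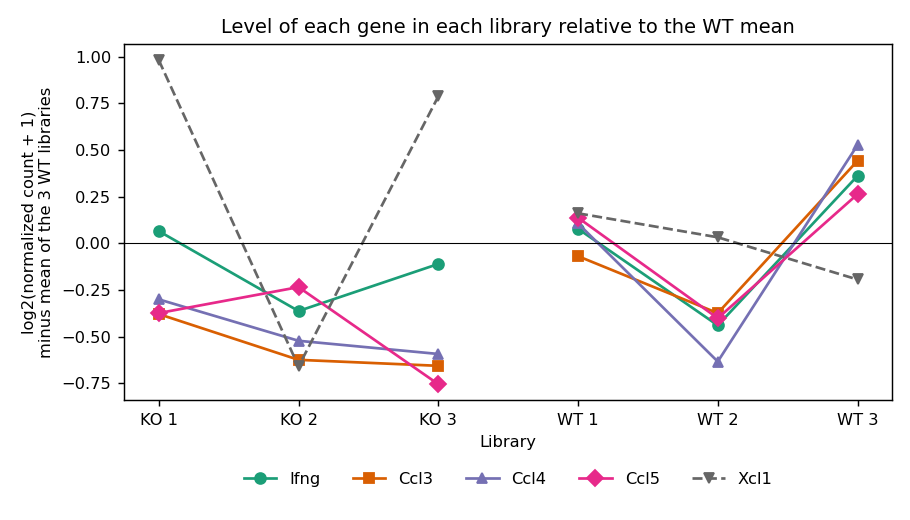
log2(normalized count + 1) of each gene minus its mean over the 3 WT-labelled libraries (vertical axis), by library (horizontal axis, KO-labelled left, WT-labelled right); a line joins the libraries of 1 label for 1 gene and carries no order in time. Ifng and the 3 CC chemokines lie together at -0.63 to -0.37 in WT-labelled library 2 and at 0.26 to 0.53 in WT-labelled library 3, while Xcl1 (dashed) moves apart from them.

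Among the limma runs with equal library weights, CC chemokines of the 5 genes were called only when WT-labelled library 2 was left out. Ccl4 and Ccl5 in that library lay at or below the highest KO-labelled value, although all KO-labelled values were below WT-labelled libraries 1 and 3. All KO-labelled values lay below WT-labelled libraries 1 and 3 for 3175 of 13654 genes (23.3%), and in 40.7% of those WT-labelled library 2 was likewise at or below the highest KO-labelled value. With WT-labelled library 2 left out, 3 of the 5 genes were called lower in the KO-labelled libraries, where 14.9% of all genes tested were called. Their log2 fold changes were then -0.74 for Ccl3 (limma adjusted p = 0.00400), -0.79 for Ccl4 (adjusted p = 0.00141) and -0.65 for Ccl5 (adjusted p = 0.00902). Ifng stood at -0.36 (adjusted p = 0.0624) and Xcl1 at 0.39 (adjusted p = 0.670). With any other single library left out none of the 5 was called. All genes were then called at 3.24%, 2.35% and 1.47% without KO-labelled library 1, 2 or 3, and at 2.73% and 1.67% without WT-labelled library 1 or 3. Array weights, by which limma weights each library by its own scatter, called the same 3 genes lower, where 19.6% of all genes were called. The libraries were not alike in other ways. Over all genes WT-labelled library 2 differed from WT-labelled libraries 1 and 3 by a chi-square per degree of freedom of 19.1 and 18.6, against 5.32 between those 2. From KO-labelled libraries 1, 2 and 3 it differed by less, at 15.9, 12.9 and 14.6. KO-labelled library 1 differed from KO-labelled libraries 2 and 3 by 10.4 and 10.1, against 6.15 between those 2.

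**Figure D3:**
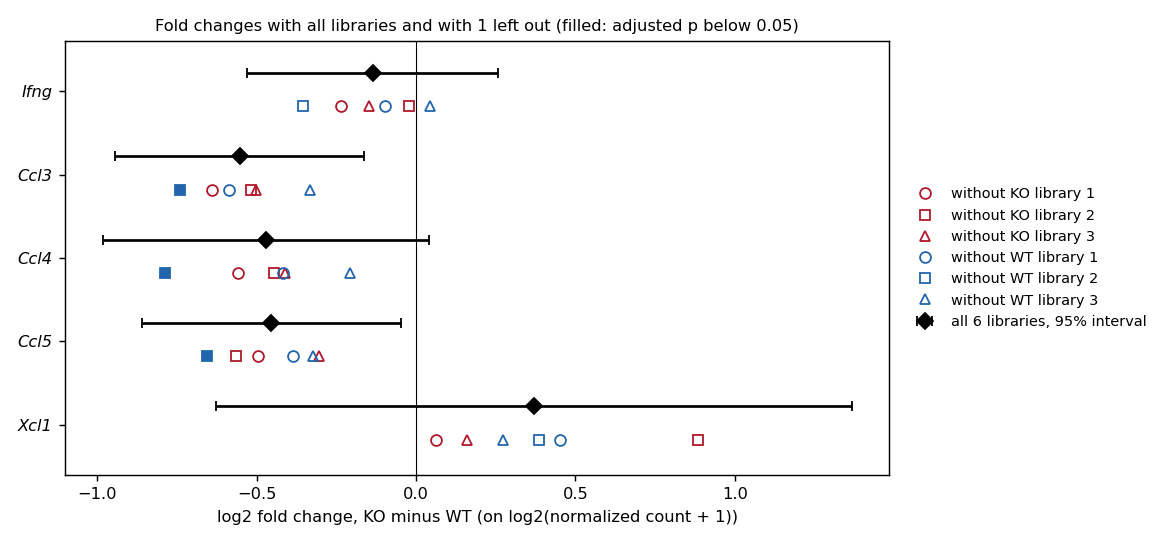
log2 fold change between KO-labelled and WT-labelled libraries (horizontal axis, KO minus WT) of each gene with all 6 libraries (black diamonds, with the 95% interval) and with 1 library left out (red for a KO-labelled and blue for a WT-labelled library). Filled symbols, those of Ccl3, Ccl4 and Ccl5 without WT-labelled library 2, had a limma adjusted p below 0.05; Ifng crosses 0 without WT-labelled library 3.

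Within 5 of the 6 libraries Ccl3 and Ccl4 kept a nearly fixed proportion. Ccl3 stood at 0.659, 0.649 and 0.666 of the Ccl4 count in KO-labelled libraries 1, 2 and 3, against 0.617, 0.834 and 0.657 in WT-labelled libraries 1, 2 and 3. The 1 ratio apart was that of WT-labelled library 2, where Ccl4 was lower relative to Ccl3 than elsewhere. The Ccl5 count was 65.3, 84.0 and 61.5 times that of Ccl4 in the KO-labelled libraries and 70.2, 80.8 and 57.3 times in the WT-labelled libraries, which overlapped.

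The ratio of Ifng to Ccl3 was the 1 among 6 ratios whose groups did not overlap. It was 4.55, 4.005 and 4.88 in the KO-labelled libraries, against 3.70, 3.19 and 3.16 in the WT-labelled libraries, so the Ifng count was higher for a given Ccl3 count in every KO-labelled library. The exact two-sided permutation p was 0.1, the smallest possible, and 0.6 after adjustment over the 6 ratios, so it did not pass. Ifng to Ccl4 had an exact p of 0.2, Ifng to Ccl5 of 0.4, Ccl5 to Ccl3 of 0.6, Ccl3 to Ccl4 of 0.9 and Ccl5 to Ccl4 of 1.

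Ccl3 and Ccl4 had nearly the same pattern over the libraries. Likeness was measured as the root mean square difference, over the 6 libraries, between 2 genes' log2 values after centring each gene on its mean, among 10515 genes that averaged 50 normalized counts or more. By this measure Ccl3 was the second nearest gene to Ccl4 (0.139), after Fam78b (0.104) and before Gas2l1 (0.157). Seen from Ccl3, Ccl4 came in place 7, behind among others Atat1 (0.109), Vopp1 (0.119) and Foxo3 (0.130), the nearest 3. The nearest to Ccl5 were Aplp1 (0.0865), Susd3 (0.0954) and Marveld1 (0.103), with Ccl3 in place 181 and Ccl4 in place 230. The nearest to Ifng were Dnajb9, a chaperone gene of the endoplasmic reticulum (0.0592), P2rx4, an ATP-gated channel (0.0801), and Dusp1, a phosphatase of MAP kinases (0.0954). Dnajb9 measured 678, 527 and 622 normalized counts in the KO-labelled libraries, against 700, 496 and 773 in the WT-labelled libraries, with the same low library in each label as Ifng. For Xcl1 the nearest were Gramd1c (0.257), Igha (0.266) and mt-Tc (0.295), all farther off than for the other genes.

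Ccl3, Ccl4 and Ccl5 sit in a chemokine gene cluster on chromosome 11, and the other genes measured between them also had negative log2 fold changes without passing, as had the neighbour Heatr9 just outside. Ccl6, a CC chemokine known mainly from myeloid cells, measured 56.5, 56.7 and 76.4 normalized counts in the KO-labelled libraries, against 110, 95.2 and 101 in the WT-labelled libraries, with no overlap (log2 fold change -0.70, SE 0.18, limma adjusted p = 0.0566). Ccl9, another CC chemokine of myeloid cells in the mouse, measured 89.9, 75.6 and 82.3 in the KO-labelled libraries, against 182, 87.3 and 204 in the WT-labelled libraries. Its WT-labelled library 2 again lay near the KO-labelled ones (log2 fold change -0.84, adjusted p = 0.118). E230016K23Rik, a non-coding transcript that spans Ccl6 on the opposite strand, had a log2 fold change of -1.31 (adjusted p = 0.103) at 42.0 or fewer normalized counts on average, and reads of the pair cannot be told apart. Heatr9, which flanks the chemokine genes and ends 3.60 kb from Ccl5, measured 1108, 1155 and 1166 in the KO-labelled libraries, against 1629, 1154 and 1601 in the WT-labelled libraries (log2 fold change -0.34, adjusted p = 0.141).

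The other measured genes within 200 kb did not share this pattern. The log2 fold changes of Taf15 (0.02), Heatr6 (0.01), Ap2b1 (0.05) and 1700020L24Rik (-0.0037) were near 0. Without WT-labelled library 2, Ccl6 (log2 fold change -0.75, limma adjusted p = 0.0308), Ccl9 (-1.22, 0.000611), Heatr9 (-0.50, 0.00100) and E230016K23Rik (-1.57, 0.0293) were called lower along with Ccl3, Ccl4 and Ccl5, and Taf15 and Heatr6 were not. No other measured gene lay within 200 kb of Ifng. Beside Xcl1, Dpt had a log2 fold change of -0.24 (adjusted p = 0.771) and the overlapping Gm20743 of 0.11 (adjusted p = 0.910).

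**Figure D4:**
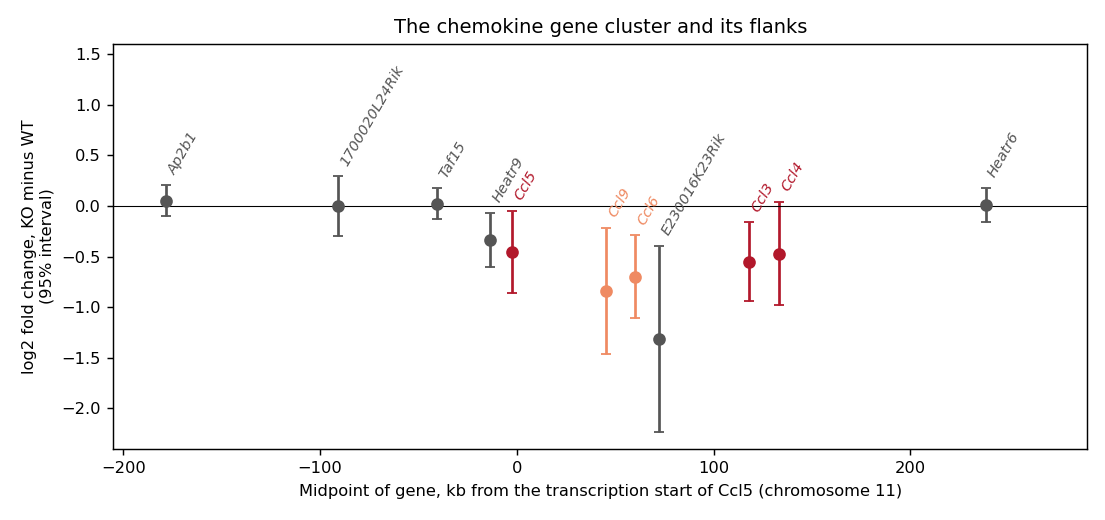
log2 fold change (vertical axis, KO minus WT, with the 95% interval) of each measured gene in and around the chemokine cluster by the distance of its midpoint from the transcription start of Ccl5 (horizontal axis, kb); Ccl5, Ccl3 and Ccl4 are red, the other chemokines orange and the rest grey. The 5 chemokine genes, Heatr9 and E230016K23Rik lie between -1.31 and -0.34, and the other 4 flanking genes between -0.0037 and 0.05.

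Of 5 measured receptor genes of these ligands reported here, none was called higher and 1 was called lower by limma, edgeR and DESeq2, where by limma 2.04% of all genes were called higher and 3.15% lower. Ifngr1, the ligand-binding chain of the interferon gamma receptor, measured 3786, 3787 and 3479 normalized counts in the KO-labelled libraries, against 4782, 5373 and 5418 in the WT-labelled libraries. It fell by 0.49 on the log2 scale (SE 0.07, limma adjusted p = 0.00616) and passed in 6 of 6 runs with a library left out. Ifngr2, the second chain, was at 35.7 normalized counts or fewer in the KO-labelled and 37.8 or fewer in the WT-labelled libraries, and Ccr1, Ccr3 and Xcr1 did not pass (adjusted p = 0.423 to 0.543). The median log2 fold change of the 5 was 0.12, and Ifngr1 was the 1 gene of them with an unadjusted p below 0.05.

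Among 22 measured genes that induce Ifng, 1 fell, none rose and 21 did not pass, with a median log2 fold change of -0.08. By limma 2.04% of all genes were called higher and 3.15% lower. Of the 22, 6 had an unadjusted limma p below 0.05 (21.4% of all genes), edgeR called 1 lower and DESeq2 3 lower. Without WT-labelled library 2, 1 was called higher and 3 lower, where 7.68% of all genes were called higher and 7.21% lower. Il12rb2, the signalling chain of the receptor for interleukin 12, a main inducer of interferon gamma, measured 293, 289 and 387 normalized counts in the KO-labelled libraries, against 736, 664 and 729 in the WT-labelled libraries. All KO-labelled values were far below all WT-labelled ones, including WT-labelled library 2, unlike Ifng itself (log2 fold change -1.15, SE 0.12, limma adjusted p = 0.00111, passing in 6 of 6 runs with a library left out). Il18r1, a receptor chain for interleukin 18, stood at -0.26 (adjusted p = 0.127), Ets1, a transcription factor of T cells, at -0.23 (adjusted p = 0.134) and Tbx21, which encodes T-bet, at -0.26 (adjusted p = 0.153). Eomes, which encodes a T-box factor that also drives Ifng, stood at 0.21 (adjusted p = 0.417). It measured 3870, 3742 and 3578 in the KO-labelled libraries, against 2898, 4196 and 2751 in the WT-labelled libraries, with WT-labelled library 2 the highest. Tbx21 and Eomes each passed in 1 of 6 runs with a library left out (limma adjusted p = 0.0131 and 0.00305).

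Of 15 transcription factors known to act on chemokine promoters, 1 fell, none rose and 14 did not pass (median log2 fold change -0.04). By limma 2.04% of all genes were called higher and 3.15% lower. Of the 15, 6 had an unadjusted limma p below 0.05 (21.4% of all genes), edgeR called 1 lower and DESeq2 2 lower. Without WT-labelled library 2, none was called higher and 3 lower, where 7.68% of all genes were called higher and 7.21% lower. Cebpb, which encodes C/EBPβ, measured 120, 105 and 146 normalized counts in the KO-labelled libraries, against 262, 224 and 199 in the WT-labelled libraries (log2 fold change -0.88, SE 0.16, limma adjusted p = 0.0134). It passed in 5 of 6 runs with a library left out (adjusted p = 0.0549 without KO-labelled library 2). Klf13, a factor known for late Ccl5 transcription in T cells, measured 6434, 6886 and 6814 in the KO-labelled libraries, against 8147, 8166 and 7754 in the WT-labelled libraries. Its groups did not overlap and its log2 fold change of -0.26 (SE 0.07) was just short of a call (adjusted p = 0.0521). The NF-κB gene Relb (0.26, adjusted p = 0.132) and Irf4 (-0.39, adjusted p = 0.147) did not pass.

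Of 17 regulators of cytokine mRNA decay, 1 fell, none rose and 16 did not pass (median log2 fold change -0.04). By limma 2.04% of all genes were called higher and 3.15% lower. Of the 17, 1 had an unadjusted limma p below 0.05 (21.4% of all genes), and edgeR and DESeq2 each called 1 lower. Without WT-labelled library 2, none was called higher and 2 lower, where 7.68% of all genes were called higher and 7.21% lower. Zfp36l2, which encodes a protein that binds AU-rich elements in cytokine mRNAs, measured 13244, 12685 and 12738 normalized counts in the KO-labelled libraries, against 21194, 16071 and 20150 in the WT-labelled libraries. The groups did not overlap, although WT-labelled library 2 was again nearest to the KO label (log2 fold change -0.56, SE 0.10, limma adjusted p = 0.0134). It passed in 3 of 6 runs with a library left out, with an adjusted p of up to 0.0787 without KO-labelled library 2 or 3 or WT-labelled library 3. Pan3 (-0.13, adjusted p = 0.353), Zc3h12a, which encodes Regnase-1 (0.14, adjusted p = 0.553), and Rc3h1, which encodes Roquin-1 (-0.08, adjusted p = 0.555), did not pass.

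Genes induced by recent stimulation, a setting in which T cells also transcribe Ifng, Ccl3, Ccl4 and Xcl1, moved in both directions: of 18 measured, 3 rose, 1 fell and 14 did not pass (median log2 fold change 0.32). By limma 2.04% of all genes were called higher and 3.15% lower. Of the 18, 12 were above 0 and 6 below, and 10 had an unadjusted limma p below 0.05 (21.4% of all genes). EdgeR called 3 higher and 1 lower, and DESeq2 5 higher and 1 lower. Without WT-labelled library 2, 5 were called higher and 5 lower, where 7.68% of all genes were called higher and 7.21% lower. Cd69, an early activation marker, measured 1365, 1065 and 1270 normalized counts in the KO-labelled libraries, against 786, 828 and 1007 in the WT-labelled libraries (log2 fold change 0.50, limma adjusted p = 0.0378). Irf8 stood 0.53 higher (adjusted p = 0.0435) and Ier3 0.41 higher (adjusted p = 0.0446). These calls passed in 3, 2 and 1 of 6 runs with a library left out, with adjusted p up to 0.154, 0.177 and 0.185. Irf8 is also expressed by B cells, and at 534, 692 and 670 in KO-labelled libraries 1, 2 and 3 it was higher in the libraries with more B cell transcripts; their part was not tested. Il2ra, the high-affinity chain of the interleukin 2 receptor, measured 206, 164 and 225 in the KO-labelled libraries, against 310, 341 and 338 in the WT-labelled libraries. Its log2 fold change was -0.74 (adjusted p = 0.0130; 0.0647 without WT-labelled library 3).

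None of 27 genes that respond to interferon gamma was called (limma; 5.19% of all genes), with a median log2 fold change of 0.09, 18 values above 0 and 9 below. Of the 27, 6 had an unadjusted p below 0.05, edgeR called none and DESeq2 called 2, both lower. Gbp7 and Nlrc5, which encode a guanylate-binding protein and a transactivator of MHC class I, stood at -0.23 (adjusted p = 0.0730) and -0.27 (adjusted p = 0.102). Socs3, a feedback inhibitor of cytokine receptors, stood at 0.31 (adjusted p = 0.122) and Gbp2 at 0.22 (adjusted p = 0.170). Without WT-labelled library 2, 8 of the 27 were called higher and 2 lower, where 7.68% of all genes were called higher and 7.21% lower.

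Of 21 other cytokine and chemokine genes measured, 3 rose, none fell and 18 did not pass (median log2 fold change -0.09). By limma 2.04% of all genes were called higher and 3.15% lower. Of the 21, 6 had an unadjusted limma p below 0.05 (21.4% of all genes), edgeR called 3 higher and none lower, and DESeq2 4 higher and 1 lower. Without WT-labelled library 2, 4 were called higher and 3 lower, where 7.68% of all genes were called higher and 7.21% lower. The 3 that rose by limma with all 6 libraries belong to the tumor necrosis factor family and not to the chemokines. Lta, which encodes lymphotoxin alpha, measured 122, 130 and 138 normalized counts in the KO-labelled libraries, against 45.0, 31.7 and 56.1 in the WT-labelled libraries (log2 fold change 1.57, SE 0.22, limma adjusted p = 0.00446). Tnf measured 372, 318 and 412 in the KO-labelled libraries, against 124, 173 and 191 in the WT-labelled libraries (log2 fold change 1.19, SE 0.17, adjusted p = 0.00489). Both passed in 6 of 6 runs with a library left out and had higher values in every KO-labelled library than in any WT-labelled one, unlike Ifng. Ltb, which encodes lymphotoxin beta, rose by 0.41 (adjusted p = 0.0357; up to 0.126 with a library left out, passing in 2 of 6 runs). The chemokine gene nearest to a call on this list was Ccl6.

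**Figure D5:**
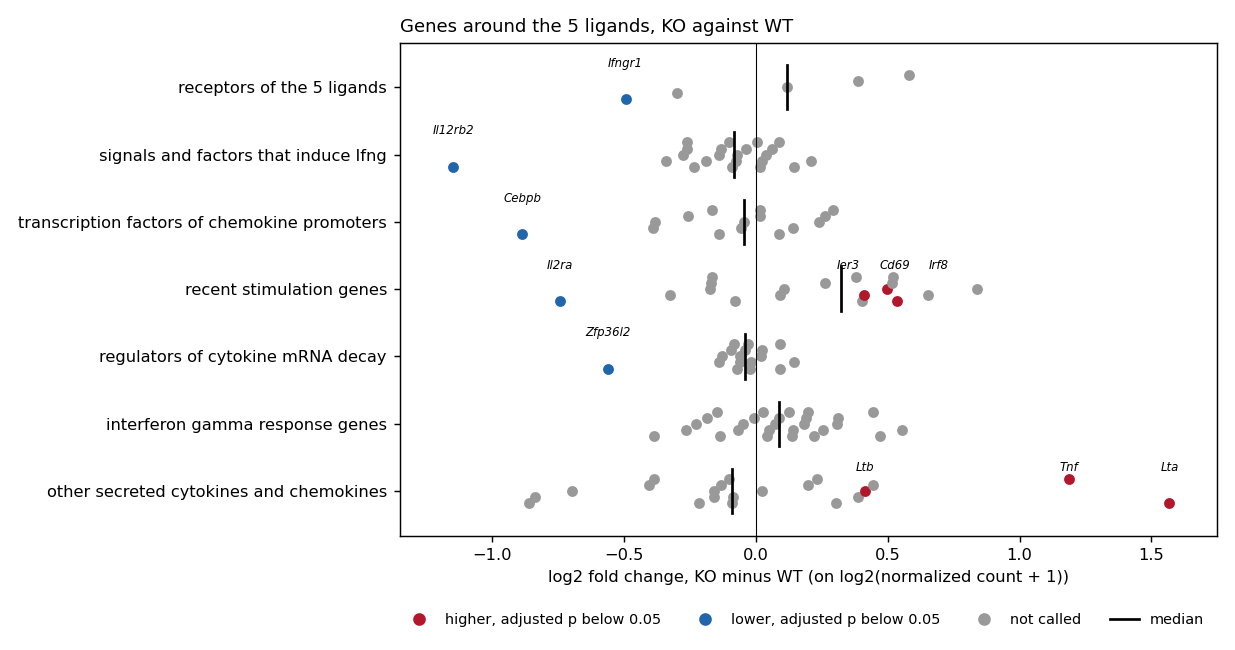
log2 fold change (horizontal axis, KO minus WT) of the genes reported from 7 lists around the ligands (rows); red and blue points were called higher and lower (limma adjusted p below 0.05), grey points were not called, and black bars are medians. Most genes are grey, and the calls farthest from 0 are Lta (1.57) and Tnf (1.19) on the right and Il12rb2 (-1.15) on the left.

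NK cells also transcribe Ifng, Ccl3, Ccl4, Ccl5 and Xcl1, so their markers are given beside these genes. The 10 measured markers summed to 1771, 1728 and 1583 normalized counts in KO-labelled libraries 1, 2 and 3, against 2238, 1418 and 3007 in WT-labelled libraries 1, 2 and 3, a sum in which library 3 was the highest and library 2 the lowest of the WT label, as for the 4 abundant genes. The cells had been sorted as donor CD45.2 CD8+ cells, a gate outside which most NK cells fall, and the purity reached was not tested. Klre1, an NK receptor gene, stood at 427, 405 and 419 in the KO-labelled libraries, against 873, 387 and 1049 in the WT-labelled libraries (log2 fold change -0.76, limma adjusted p = 0.160). Klra3 had a like pattern at 72.3, 85.7 and 79.4 in the KO-labelled libraries, against 238, 85.3 and 304 in the WT-labelled libraries (-1.21, adjusted p = 0.0999). Cd244a differed from them in that WT-labelled library 2 lay above every KO-labelled library. It measured 23.2, 29.0 and 36.7 in the KO-labelled libraries, against 46.0, 43.6 and 59.5 in the WT-labelled libraries (-0.74, adjusted p = 0.132). Klrb1c (NK1.1) had the same order over the WT-labelled libraries but a positive log2 fold change. It measured 953, 847 and 760 in the KO-labelled libraries, against 645, 393 and 903 in the WT-labelled libraries (0.47, adjusted p = 0.286). Relative to the WT mean on the log2 scale, the median of the 10 markers was -0.00041, -0.75 and 0.56 in WT-labelled libraries 1, 2 and 3. Of the 10, 1 fell and none rose, with a median of -0.18. That 1, Itga2, had another order over the WT-labelled libraries: it measured 78.8, 98.3 and 80.3 in the KO-labelled libraries, against 204, 369 and 253 in the WT-labelled libraries (-1.63, adjusted p = 0.00261). Ncr1, which encodes the NK receptor NKp46, was not analysed here. Effector CD8+ T cells can also express Klr genes and Itga2, and the part of NK cells in the levels of Ifng and the chemokines was not tested.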

How the data were processed

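RNA sequencing of 6 samples of sorted donor CD8+ T cells, 3 KO-labelled and 3 WT-labelled, was analysed from 1 deposited table. The deposited values are a linear signal, headed normalized counts. The submitters' processing notes name mm10. The aligner, the counter, the annotation and the strand setting were not given in the sources used here. Dividing each column by its own step gave whole reads for 100% of values (tolerance 0.01; 1.43% to 1.76% before). In WT-labelled library 2 and KO-labelled library 3 the step is near 1, and a further check was not applied. These reads (14746864 to 22931296 a library) served edgeR 4.0.16 and DESeq2 1.42.0 as alternatives. By chi-square (5.32 or more per degree of freedom) all pairs of libraries differed beyond sampling noise.

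KO minus WT was fitted with limma 3.58.1 in R 4.3.3 (empirical Bayes with trend, two-sided) on log2(normalized count + 1), which understates changes of low genes. Genes with a mean of at least 10 were tested (13654 of 13675). Exact permutation tests and ratios used scipy 1.17.1. Of the IDs, 13648 matched GENCODE M21 (GRCm38), which also gave coordinates and sequences, and 27 did not. The limma code was first tested on simulated data.

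The 5 genes and the lists were chosen with earlier results of these data known. Named from each list are its called members and those of smallest p up to 4. For marker lists these are the called members with Klre1, Klra3 and Cd244a. Also named are the nearest 2 genes on each side within 200 kb, the 3 of nearest pattern, and Csnk2a1. The text adds from lists Eomes, Klrb1c and Ifngr2, chosen after their values were seen, and the other genes of the chromosome 11 cluster. Some results are not reported here. Alternatives were other pseudocounts, filters and scalings, array weights, a replicate block, no variance trend, edgeR, DESeq2 and leaving out libraries.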

Additional observations from a re-analysis of the deposited data

How the results depend on the processing

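Leaving out 1 library at a time moved the number of the 5 genes called between 0 and 3, and their log2 fold changes between -0.74 and -0.33 for Ccl3, -0.79 and -0.21 for Ccl4, -0.65 and -0.30 for Ccl5, -0.36 and 0.045 for Ifng, and 0.06 and 0.88 for Xcl1. The calls came without WT-labelled library 2. Array weights, which let limma give each library its own weight, also called 3 of the 5 (19.6% of all genes): Ccl3 at -0.82 (adjusted p = 0.00464), Ccl4 at -0.81 (adjusted p = 0.00987) and Ccl5 at -0.68 (adjusted p = 0.0101). DESeq2 called 1, Ccl3 (-0.59). Ifng turned positive without WT-labelled library 3 (0.045) and without KO-labelled libraries 2 and 3 together (0.0656), a setting added after seeing the data. The cause was not tested. Pseudocounts of 0.5 and 5, no filter, a mean filter of 50 (where Xcl1 was not tested), TMM factors, quantile normalization, no variance trend, the replicate block and edgeR called none of the 5 and turned no sign.

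Over all genes, 708 were called, but 141 without a variance trend, 2676 with array weights, 2028 without WT-labelled library 2, 200 to 440 without any other single library, and 0 without KO-labelled libraries 2 and 3 (1861 at an unadjusted p below 0.05, limma), so that no call named here holds in that last setting. Same-numbered libraries did not deviate together (correlations -0.54, -0.27 and -0.23). These are deviations from means of 3 libraries, so they cannot settle whether the numbers pair the libraries, and the labels do not say. With the replicate number as a block 197 genes and none of the 5 were called (Ccl3 -0.55, limma adjusted p = 0.173). Xcl1 rests on 7 to 32 reads a library, and its log2 SD was 0.90 in KO-labelled and 0.18 in WT-labelled libraries.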
